A study of Mus musculus with 19 samples.

Results

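The transcription regulators that set the pace of the cell cycle were examined in retinal microglia at day 3 of laser-induced choroidal neovascularization (CNV d3) and in microglia of unlasered control mice. They are *E2f1*, *E2f2*, *E2f3*, *E2f7*, *E2f8*, *Mybl2*, *Foxm1*, *Rb1*, *Rbl1* and *Myc*, and they were taken by gene symbol, with earlier results of these data known, as 10 of the 27299 genes in the deposited table. Microglia are the tissue macrophages of the retina, and in this model laser burns rupture the retinal pigment epithelium so that vessels of the choroid sprout towards the retina. In the CNV d3 group, 6 burns had been set per eye, and both groups comprised 6 samples each. All mice were of one stated age, which the labels and the methods give as 8 weeks. In the paper's text, an experimental scheme gives 6 weeks for reporter mice of another experiment, at tamoxifen treatment. The labels name C57BL/6J mice and sorted CD45+CD11b+CX3CR1+Ly6C-Ly6G- cells, whereas the methods describe *Cx3cr1* GFP/+ mice and gate on a low CD45 signal. Neither source says whether a sample held the cells of 1 mouse or of several, so the p-values measure the spread between these samples.

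Entry into the cell cycle is gated by the retinoblastoma protein RB and its relatives, which bind E2F transcription factors and hold their target genes silent until cyclin-dependent kinases phosphorylate them. Released activating E2F proteins switch on genes for DNA replication, among them the atypical E2F repressors that later shut the same genes down. In the phases that follow, B-MYB and FOXM1 drive the genes of mitosis, while MYC promotes growth, ribosome production and metabolism. Microglia of the healthy adult retina divide rarely and are known to proliferate after injury.

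The sequencing depth differed between the groups, with 10963178 to 22335233 reads on genes in the control samples and 23532260 to 29523018 in CNV d3. Values are given as normalized counts, the reads of a gene after division by the size factor of the sample, and 1 read was worth between 0.739 and 1.99 of them. The summed level of 10 microglia markers was 1195097 to 1353815 normalized counts in control and 669718 to 994225 in CNV d3, and *P2ry12*, a purinergic receptor that defines homeostatic microglia, fell by 1.65 on the log2 scale (limma, adjusted p = 1.0e-05). The 8 monocyte markers summed to 211 to 469 normalized counts in control and to 4426 to 50715 in CNV d3, most of it from *Fn1*, which codes for fibronectin. *Ly6c2*, the gene behind the Ly6C antigen that the sort excludes, had 0 reads in control and a mean of 12.9 normalized counts in CNV d3. Among the same markers, *Ccr2* and *Plac8* rose from means of 34.2 and 89.9 to 664 and 639 (limma adjusted p = 0.00455 and 0.0115). At an adjusted p under 0.05 in limma, 4 of the 8 markers were higher in CNV d3 and 0 lower. The sum of 6 markers of Mueller glia and astrocytes was 19392 to 41082 in control and 57353 to 99303 in CNV d3, most of it from *Apoe*, which microglia express too, while *Glul* and *Slc1a3* had lower means in CNV d3 than in control (5723 and 4734 for *Glul*, 2117 and 1358 for *Slc1a3*, control first; limma adjusted p = 0.148 and 0.0208) and *Gfap* had means of 13.7 and 23.9. The part of other cells in the results was not tested. The neutrophil and lymphocyte lists reached at most 22.3 and 30.4 normalized counts in any sample. *Ddx3y*, a gene of the Y chromosome, had 0 reads in all controls and in CNV d3 samples 1 to 3 and 1239 to 1450 normalized counts in CNV d3 samples 4 to 6, so the sex of the mice was not balanced between the groups.

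Of the 10 regulators, 5 were significantly increased in CNV d3 and none was decreased. The increased genes were *E2f1*, the atypical E2F genes *E2f7* and *E2f8*, and the mitotic regulators *Mybl2* and *Foxm1*. In each of them the lowest CNV d3 sample exceeded the highest control, and the two-sided exact permutation p was 0.00216, the smallest the design allows. *E2f2*, *E2f3*, *Rb1*, *Rbl1* and *Myc* did not pass the test. No regulator was lower in CNV d3 at an unadjusted limma p under 0.05, and at that level edgeR had 1 and DESeq2 2 lower, with 0 decreased DEG in either tool. A differentially expressed gene (DEG) was called by limma on log2(normalized counts + 1) at an absolute log2 fold change (log2FC) above 1.5 and a Benjamini-Hochberg adjusted p (padj) under 0.05. Under that rule 3.91% of all genes were increased and 1.07% decreased. At padj under 0.05 alone, the same 5 regulators were called, beside 8.29% of all genes increased and 4.57% decreased. Groups that did not overlap were found for 4.64% of all genes with CNV d3 above control and for 2.83% with CNV d3 below control. The median log2FC was 3.18 over the 10 regulators and 0.15 over all genes. The 3.18 lies between *E2f2* (3.06), which was not called, and *E2f1* (3.30). Control samples at or near 0 enlarge such values, which then depend on the pseudocount. For *E2f2* and *Foxm1* the ratios of means were 2.25 and 12.0, beside log2FC of 3.06 and 6.86.

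The count depended on which samples and which tool were used. With the 3 CNV d3 samples free of *Ddx3y* reads against all controls, 2 of the 10 regulators (*E2f7* and *Mybl2*) were called, and the same 2 were called without CNV d3 samples 3 and 6, which had the highest monocyte marker sums. With *Ddx3y* as a covariate 4 were called. edgeR on the reads recovered from the values called 4 as well (all but *E2f8*), and DESeq2 called 3 (*E2f1*, *E2f7* and *Mybl2*). The increased DEG among all genes fell too, from 1068 to 524 and 553 in the 2 subsets, which hold fewer CNV d3 samples. They numbered 690 with the covariate, 839 in edgeR and 908 in DESeq2, which gave an adjusted p to 17186 genes. In bulk RNA, a larger number of cells that express a gene and more RNA of it per cell cannot be told apart.

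**Figure D1:**
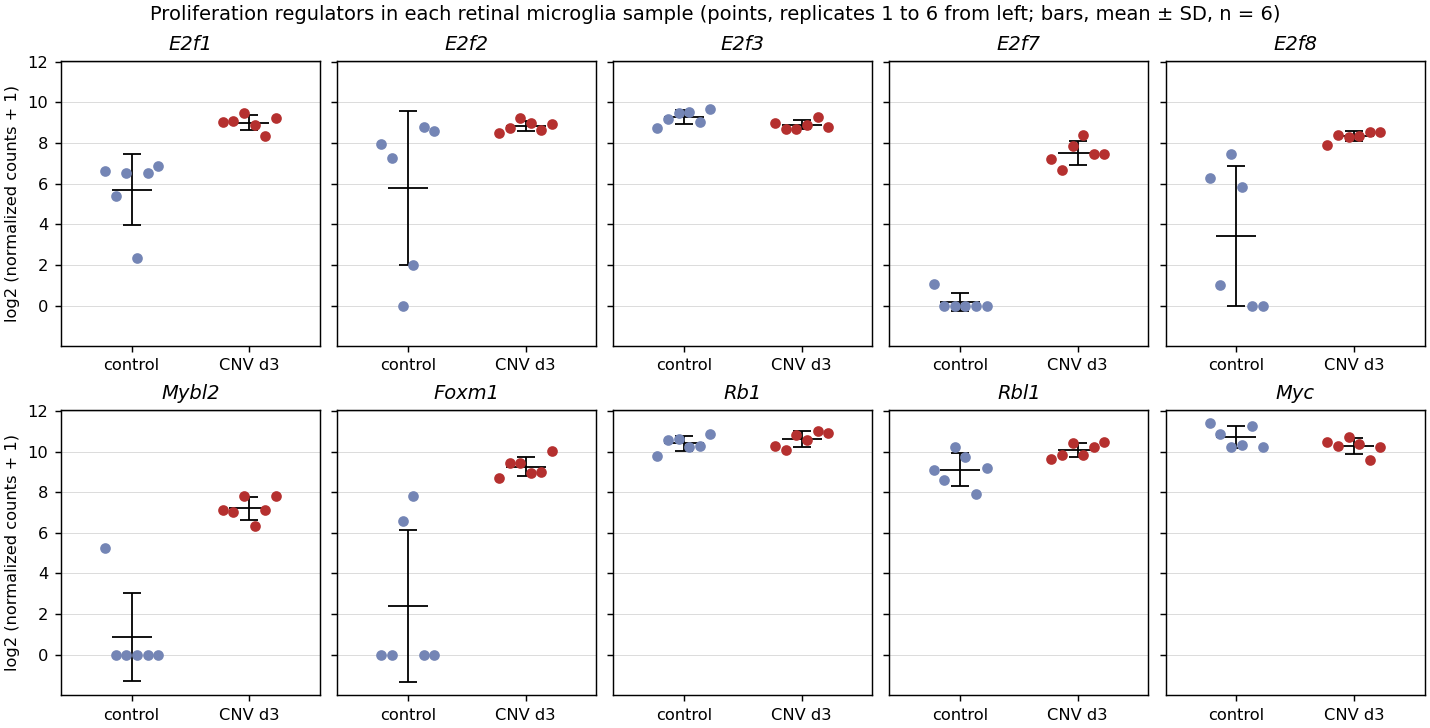
Level of each of the 10 regulators as log2(normalized counts + 1), with 1 point for each of the 6 control and 6 CNV d3 samples and bars for the mean ± SD. E2f1, E2f7, E2f8, Mybl2 and Foxm1 show separate groups, while some control samples of E2f2, E2f8, Mybl2 and Foxm1 sit at or near 0 and others of the same gene do not.

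The activating E2F genes differed from each other. *E2f1*, an activator of the genes for DNA replication that also carries a role in apoptosis, lies at chr2:154559407-154569892 on the minus strand (GRCm38). Its values in control samples 1 to 6 were 97.7, 40.5, 91.2, 4.06, 91.4 and 117 normalized counts, and in CNV d3 samples 1 to 6 they were 519, 541, 703, 478, 328 and 606. The lowest CNV d3 sample thus stood well above the highest control. The mean rose 7.18-fold from 73.7 ± 42.5 to 529 ± 126 normalized counts (SD, n = 6 each), and *E2f1* was an increased DEG in limma (log2FC = 3.30, 95% interval 1.97 to 4.63, padj = 0.00257) and in edgeR (log2FC = 2.87, padj = 0.000585). Its call was lost with the 3 CNV d3 samples free of *Ddx3y* reads (log2FC = 3.47, limma padj = 0.0963) and without the 2 samples of highest monocyte marker sum (log2FC = 3.13, limma padj = 0.0602).

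*E2f2* (chr4:136172394-136196057, plus strand) codes for a further activating E2F that binds RB. The control samples fell apart, with 251, 154, 0, 3.04, 442 and 381 normalized counts in samples 1 to 6, whereas CNV d3 gave 365, 425, 600, 500, 397 and 484. Control samples 5 and 6 thus lay within the range of CNV d3. The mean was 205 ± 187 in control and 462 ± 84.8 in CNV d3 (SD, n = 6), a ratio of 2.25. Limma did not call the difference (log2FC = 3.06, SE 1.29, padj = 0.146), and the two-sided exact permutation test over samples gave an unadjusted p = 0.0152. The log2 value is larger than the ratio of means because 2 control samples were at or near 0.

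*E2f3* (chr13:29906575-29986063, minus strand), the third activator, was at 636 ± 151 normalized counts in control and 481 ± 78.9 in CNV d3 (SD, n = 6). The control values ran from 425 over a median of 653 to 816 and the CNV d3 values from 412 over 464 to 622, so the groups overlapped. The log2FC was -0.38 (SE 0.18, limma padj = 0.211, exact permutation p = 0.0584). The within-sample log2 ratio of *E2f1* to *E2f3*, which does not depend on the scaling between samples, was -3.56 ± 1.88 in control and 0.11 ± 0.58 in CNV d3 (SD, n = 6). The 2 groups did not overlap in this ratio, and the difference of 3.68 had an exact permutation p of 0.00216, or 0.00649 after adjustment over the 6 ratios tested. The ratio of *E2f1* to *E2f4*, a partner of the pocket proteins in resting cells, was -3.89 ± 1.85 in control and -1.19 ± 0.35 in CNV d3, with the same p-values.

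Promoter letters were read from RefSeq windows (build GRCm38.p6) that hold 250 bases before and 50 bases after a transcription start, and 7 of the 10 genes had such a window. *Foxm1*, *Rb1* and *Myc* were not among them. On both strands, 4 motifs were searched: the E2F site (TTTCCCGC, TTTGGCGC, TTTCGCGC or TTTGCCGC), the cell cycle homology element CHR of mitotic genes (TTTGAA or TTCGAA), the CCAAT box (CCAAT) and the E-box bound by MYC (CACGTG). No motif contains another. Of 32851 windows, 2.26% held an E2F site, 19.2% a CHR, 37.4% a CCAAT box and 7.15% an E-box. Of the 27025 genes with a window, the shares with a motif in any window were 2.6%, 21.7%, 41.1% and 8.09%, in the same order. Shares of the lists below are per gene. The windows of *E2f2* and *E2f3* are shown because both hold an E2F site although neither gene was a DEG, with the motif letters in capitals. The window of *Mybl2* held none of the 4 motifs in these letters. The RefSeq window of *E2f1* lies wholly inside the annotated gene, downstream of its 5′ end, so the bases before that end were not searched. The E2F site of *E2f2* starts at base 40 after the RefSeq transcription start. Its window ends before the annotated gene start at chr4:136172394, so the site lies upstream of the annotated gene. The window of *Mybl2* also ends before its annotated gene. The E2F site of *E2f3* starts at 11 bases before the transcription start, in the complementary strand, where the letters GCGGGAAA are the reverse complement of TTTCCCGC. The stretches lie at chr4:136172251-136172323 on the plus strand and at chr13:29986057-29986218 on the minus strand.
E2f2: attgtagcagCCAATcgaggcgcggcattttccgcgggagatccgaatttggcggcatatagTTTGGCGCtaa
E2f3: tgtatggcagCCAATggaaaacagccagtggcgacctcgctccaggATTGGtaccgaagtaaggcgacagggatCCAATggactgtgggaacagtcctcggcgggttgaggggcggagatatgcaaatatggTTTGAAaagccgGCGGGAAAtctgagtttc

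The atypical E2F genes code for repressors that bind DNA without a dimerization partner and dampen E2F target genes late in S phase. *E2f7* (chr10:110745439-110787384, plus strand) was nearly without signal in control, with 1 read in sample 1 and 0 in the other 5. In CNV d3 the values were 146, 101, 233, 331, 178 and 175 normalized counts in samples 1 to 6. The pooled ratio was 1015 with a 95% exact interval of 182 to 40114, which covers counting error only, as the 1395 reads of CNV d3 stood against 1 read in control. *E2f7* had the largest log2FC of the 10 genes (7.34, SE 0.61, limma padj = 7.0e-06), and it was called by edgeR (9.31) and DESeq2 (9.34) and in each subset of samples. In its exons, 0.955% of the bases are shared with *1700020G17Rik*.

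*E2f8* (chr7:48866429-48881596, minus strand) was at 77.3, 1.01, 175, 55.8, 0 and 0 normalized counts in control samples 1 to 6 and at 236, 340, 319, 321, 373 and 375 in CNV d3. Controls 2, 5 and 6 thus had at most 1 read, while control sample 3 came closest to the lowest CNV d3 sample. The mean rose 6.37-fold from 51.4 ± 68.8 to 328 ± 50.8 (SD, n = 6; limma log2FC = 4.91, SE 1.20, padj = 0.0135). This call was lost in edgeR (log2FC = 2.68, padj = 0.0623), in DESeq2 (log2FC = 2.67, padj = 0.0806), with *Ddx3y* as a covariate (log2FC = 4.78, padj = 0.0820) and in 6 of the 12 fits that left out 1 sample (control 2 or any of CNV d3 2 to 6), where the log2FC lay between 4.43 and 4.92 and the limma padj between 0.0519 and 0.0627. Exons of *Gm2788* share 11.2% of its exon bases, so its counts are uncertain to that extent. The log2 ratio of *E2f8* to *E2f1* differed by 1.61 (exact permutation p = 0.377, adjusted over the 6 ratios 0.475), but nothing can be read from it, since *E2f8* had at most 1 read in control samples 2, 5 and 6 and *E2f1* had 4 reads in control sample 4.

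The windows of both genes are shown for the motifs that differ between them. *E2f7* holds an E2F site starting 198 bases before the start and 2 CCAAT boxes, and *E2f8* a CHR starting 20 bases before the start and 1 CCAAT box, each in the strand complementary to the gene. The stretches lie at chr10:110745231-110745439 on the plus strand and at chr7:48881601-48881718 on the minus strand, with the motif letters in capitals.
E2f7: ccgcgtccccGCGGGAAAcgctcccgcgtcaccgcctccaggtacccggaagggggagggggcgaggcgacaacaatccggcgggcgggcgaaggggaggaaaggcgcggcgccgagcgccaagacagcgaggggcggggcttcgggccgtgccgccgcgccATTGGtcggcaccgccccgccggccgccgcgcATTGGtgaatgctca
E2f8: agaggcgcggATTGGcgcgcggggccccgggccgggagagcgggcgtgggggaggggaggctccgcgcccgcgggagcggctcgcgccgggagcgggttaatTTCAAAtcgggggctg

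**Figure D2:**
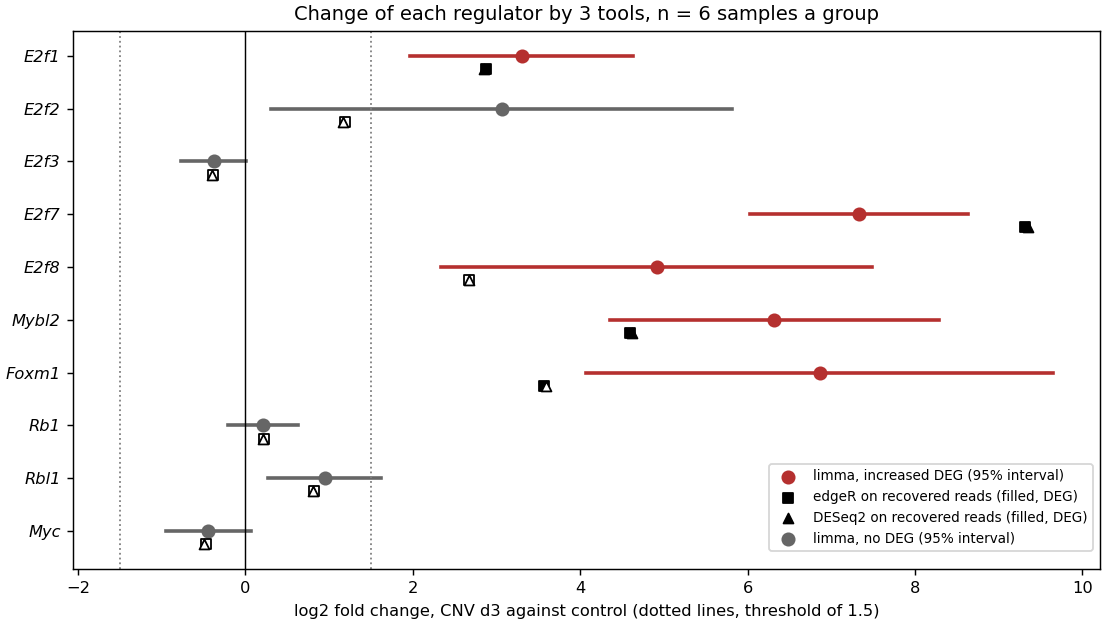
The log2 fold change of CNV d3 against control is plotted for each regulator by limma (circles with 95% intervals, red for an increased DEG), edgeR (squares) and DESeq2 (triangles), with filled black symbols for DEG and dotted lines at the threshold of 1.5. E2f7 has the largest value in each tool, and the count tools place E2f8, Mybl2 and Foxm1 lower than limma.

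*Mybl2* (chr2:163054687-163084688, plus strand) codes for B-MYB, which joins the MuvB complex in S phase and prepares the mitotic genes for FOXM1. Control sample 1 had 35 reads, or 37.6 normalized counts, and the other 5 controls had 0. The CNV d3 samples 1 to 6 had 140, 128, 221, 79.6, 136 and 222 normalized counts, with sample 4 the lowest. The means were 6.26 ± 15.3 in control and 154 ± 56.2 in CNV d3 (SD, n = 6), and *Mybl2* was an increased DEG (limma log2FC = 6.32, SE 0.92, padj = 0.000408) in each tool and each subset of samples.

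*Foxm1* (chr6:128362967-128376146, plus strand) codes for the forkhead factor that peaks in G2 and mitosis. It had 0 reads in control samples 1, 2, 5 and 6, and 93.5 and 225 normalized counts in controls 3 and 4. In CNV d3 samples 1 to 6 the values were 414, 699, 702, 486, 511 and 1029, highest in sample 6. The mean rose 12.0-fold from 53.1 ± 92.3 to 640 ± 224 (SD, n = 6; limma log2FC = 6.86, SE 1.31, padj = 0.00267). edgeR called it (log2FC = 3.57, padj = 0.0310) and DESeq2 did not (log2FC = 3.59, padj = 0.0980). With the 3 CNV d3 samples free of *Ddx3y* reads the limma padj was 0.121, and without the 2 samples of highest monocyte marker sum it was 0.0625. Of its exon bases, 2.50% are shared with *Gm44596* and *Tex52*. No control sample had reads of both *Foxm1* and *Mybl2*, so their ratio was not measured in control and is not compared.

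The zeros in control were shared by some regulators and not by others. *E2f7* and *Mybl2* were both at 0 in control samples 2 to 6. *Foxm1* was at 0 in control sample 1, the only control with reads of *Mybl2* and *E2f7*, while *E2f2* was at 0 in control sample 3, which had the highest control value of *E2f8*. Control samples 5 and 6 had 0 reads of *E2f7*, *E2f8*, *Mybl2* and *Foxm1* at depths of 22335233 and 10963178 reads. A gene with 3 reads would have had 5.96 normalized counts in control sample 6, the shallowest one. The cDNA was amplified from picogram amounts of RNA, and the part of this amplification in the zeros was not tested. Each of the 6 CNV d3 samples had reads of all 10 regulators, and with all samples thinned to the reads of the shallowest one the same number of regulators, 5, was called.

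The pocket proteins RB and p107 hold E2F factors in check. *Rb1* (chr14:73183673-73325822, minus strand) ran from 891 over a median of 1387 to 1861 normalized counts in control and from 1073 over 1675 to 2036 in CNV d3, and the groups overlapped. The log2FC was 0.21 (SE 0.20, limma padj = 0.547), and it turned to -0.02 both with *Ddx3y* as a covariate and with the 3 CNV d3 samples free of *Ddx3y* reads. Exons of *Lpar6* and *Rcbtb2* share 14.9% of its exon bases. *Rbl1* (chr2:157145893-157204534, minus strand), which codes for p107 and is known as an E2F target itself, had 538, 387, 1188, 835, 237 and 584 normalized counts in control and 789, 901, 1358, 896, 1204 and 1422 in CNV d3. Control samples 3 and 4 lay within the CNV d3 range. The mean was 628 ± 340 in control and 1095 ± 268 in CNV d3 (SD, n = 6), and the difference did not pass (limma log2FC = 0.95, SE 0.32, padj = 0.0632; exact permutation p = 0.0195 before adjustment). The padj was under 0.05 in DESeq2 (0.0492) and in limma after a filter of at least 10 normalized counts in 6 samples (0.0368), with a log2FC of 0.80 and 0.95, and in limma without control sample 3 (0.0246, log2FC = 1.17), each below the DEG threshold. The within-sample log2 ratio of *Rbl1* to *Rb1* differed by 0.74 (exact permutation p = 0.0866, adjusted 0.173), and without control sample 3 by 0.91 (adjusted p = 0.0433). The ratio of *Rbl1* to *Rbl2*, which codes for the third pocket protein p130, differed by 0.42 (exact permutation p = 0.396, adjusted 0.475). The window of *Rbl1* held an E2F site starting 18 bases before the start, within chr2:157204535-157204562 on the minus strand.
Rbl1: agaaggcgatTTTCGCGCgctttgtcgc

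*Myc* (chr15:61985391-61990374, plus strand) was not a DEG. The control samples 1 to 6 had 2696, 1881, 1182, 1283, 2467 and 1192 normalized counts, and the CNV d3 samples had 1430, 1216, 1677, 1339, 763 and 1191. Control samples 1 and 5 were the highest of all 12, CNV d3 sample 5 the lowest, and the rest overlapped. The mean was 1783 ± 674 in control and 1269 ± 304 in CNV d3 (SD, n = 6; log2FC = -0.45, 95% interval -0.95 to 0.06, limma padj = 0.270, exact permutation p = 0.149). The upper bound of the interval was below the log2FC of each of the 5 called genes.

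Per kilobase of exon, *Myc* was the most abundant of the 10 in both groups, with 656 ± 248 normalized counts per kb in control and 467 ± 112 in CNV d3 (SD, n = 6), followed by *Rb1* with 230 ± 56.6 and 266 ± 65.8. In control, *E2f3* (117 ± 27.8) and *Rbl1* (105 ± 56.7) came next and did not differ beyond their spread, and *E2f1* ranked sixth with 23.4 ± 13.5, within the spread of *E2f2* above it. In CNV d3, *Rbl1* (183 ± 44.7) and *E2f1* (168 ± 40.0) did not differ beyond their spread and *Foxm1* (111 ± 38.9) followed, while *E2f3* with 88.7 ± 14.5 ranked seventh. There, *Foxm1* and *E2f2* did not differ beyond their spread, nor did *E2f2* and *E2f3*. *Mybl2* and *E2f7* had the lowest means of the 10 in both groups, and the difference between them was within the spread. In control, so was that between *Foxm1* and *Mybl2*.

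Among the CNV d3 samples, the coefficient of variation of a regulator ran from 15.5% for *E2f8* to 41.1% for *E2f7*. CNV d3 sample 6 was the highest of the 6 for 4 regulators and sample 3 for 3, and sample 1 was the lowest for 4. Samples 3 and 6 also had the highest monocyte marker sums of 50715 and 36054 normalized counts, and samples 1 and 4 the lowest with 4426 and 4926, above the control maximum of 469. The mean of these sums in CNV d3 is mostly *Fn1*, which the paper lists among the top genes increased in CNV-associated microglia. In samples 1 and 4, *E2f1* was at 519 and 478 normalized counts and *Foxm1* at 414 and 486, against control maxima of 117 and 225. The part of monocytes in these levels was not tested.

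The genes around the regulators were followed in 6 lists. Of the 11 partners of E2F and RB, 1 was an increased DEG and none was decreased, and the median log2FC was 0.60. That gene was *Tfdp1*, which codes for the DP subunit that pairs with typical E2F proteins, and it rose from 458 ± 104 to 1420 ± 302 normalized counts (SD, n = 6; limma log2FC = 1.64, padj = 4.7e-05). *Rbbp4*, a histone chaperone of the DREAM complex, and *E2f4* passed at padj under 0.05 alone (log2FC = 0.85 and 0.60, limma padj = 0.000127 and 0.0160), 4 of the list in all, and 1 partner was decreased at that looser rule. Of the 9 cyclins and kinases that act on RB, 3 were increased DEG. *Ccne1*, a cyclin of the G1 to S transition, rose from 1.89 ± 2.93 to 350 ± 61.6 normalized counts (log2FC = 7.53, limma padj = 1.0e-05), *Ccna2* from 63.7 ± 46.9 to 2279 ± 715 (log2FC = 5.67, limma padj = 4.2e-05) and *Ccne2* from 91.2 ± 84.5 to 611 ± 138 (log2FC = 3.80, limma padj = 0.00808). *Cdk4*, the partner of D cyclins, passed at padj under 0.05 alone (log2FC = 0.77, limma padj = 0.00178), and *Ccnd1* did not pass (2124 ± 700 in control and 1760 ± 367 in CNV d3, log2FC = -0.23, limma padj = 0.536).

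Of 20 known E2F target genes, 14 were increased DEG and 19 passed at padj under 0.05 alone, with none decreased and a median log2FC of 2.05. *Cdc6*, which loads the replicative helicase onto DNA, rose from 9.43 ± 16.5 to 382 ± 105 normalized counts (SD, n = 6; log2FC = 6.96, limma padj = 0.000232). The ribonucleotide reductase subunits *Rrm2* (148 ± 189 to 2400 ± 745, log2FC = 6.19, limma padj = 0.00662) and *Rrm1* (log2FC = 2.13, limma padj = 3.4e-05) and the helicase subunit *Mcm6* (818 ± 514 to 4631 ± 1354, log2FC = 2.73, limma padj = 0.000316) were also DEG. *Rrm2* had 0 reads in 2 of the 6 controls, which enlarges its log2FC. *Pcna*, the sliding clamp of DNA polymerases (log2FC = 1.36, limma padj = 6.6e-05), and *Mcm3* (log2FC = 0.83, limma padj = 0.00220) increased by less than the DEG threshold. The list summed to 7098 to 9563 normalized counts in control and to 23214 to 39784 in CNV d3. An E2F site was in the windows of 11 of the 17 listed genes with a window (64.7%), a CHR in 2 and a CCAAT box in 13 (76.5%). The site of *Cdc6* is shown for its letters in capitals, which match those in *E2f3* and *E2f7*, at chr11:98908003-98908030 on the plus strand.
Cdc6: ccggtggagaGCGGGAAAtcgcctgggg

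Of 20 known targets of FOXM1 and MYBL2, 19 were increased DEG and all 20 passed at padj under 0.05 alone, with a median log2FC of 5.97. *Bub1*, a kinase of the spindle checkpoint, rose from 6.58 ± 16.1 to 1146 ± 491 normalized counts (SD, n = 6; log2FC = 9.16, limma padj = 1.3e-05), with 0 reads in 5 of 6 controls. *Top2a*, the topoisomerase of dividing cells, rose from 101 ± 149 to 3787 ± 1349 (log2FC = 7.81, limma padj = 0.000745), and *Cdk1*, the kinase that starts mitosis, from 205 ± 59.2 to 1867 ± 572 (log2FC = 3.19, limma padj = 8.1e-06). *Cks2*, a small CDK subunit, was below the DEG threshold (95.4 ± 32.3 to 206 ± 67.2, log2FC = 1.11, limma padj = 0.0285). The summed level was 325 to 2322 normalized counts in control and 13007 to 32095 in CNV d3. It was 13007 and 14800 in CNV d3 samples 1 and 4. Their monocyte marker sums of 4426 and 4926 were the lowest in CNV d3 but above the control maximum of 469. With the 3 CNV d3 samples free of *Ddx3y* reads, 8 of the 20 E2F targets and 8 of the 20 FOXM1 and MYBL2 targets were DEG, and without CNV d3 samples 3 and 6 the counts were 9 and 11. A CHR was in 12 of the 17 FOXM1 and MYBL2 targets with a window (70.6%), a CCAAT box in 16 (94.1%), and an E2F site in 1. The stretch of *Bub1*, with 2 CCAAT boxes and a CHR in capitals, lies at chr2:127831830-127831937 on the minus strand.
Bub1: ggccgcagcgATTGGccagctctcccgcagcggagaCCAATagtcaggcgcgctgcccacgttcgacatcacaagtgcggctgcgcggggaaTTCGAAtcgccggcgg

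**Figure D3:**
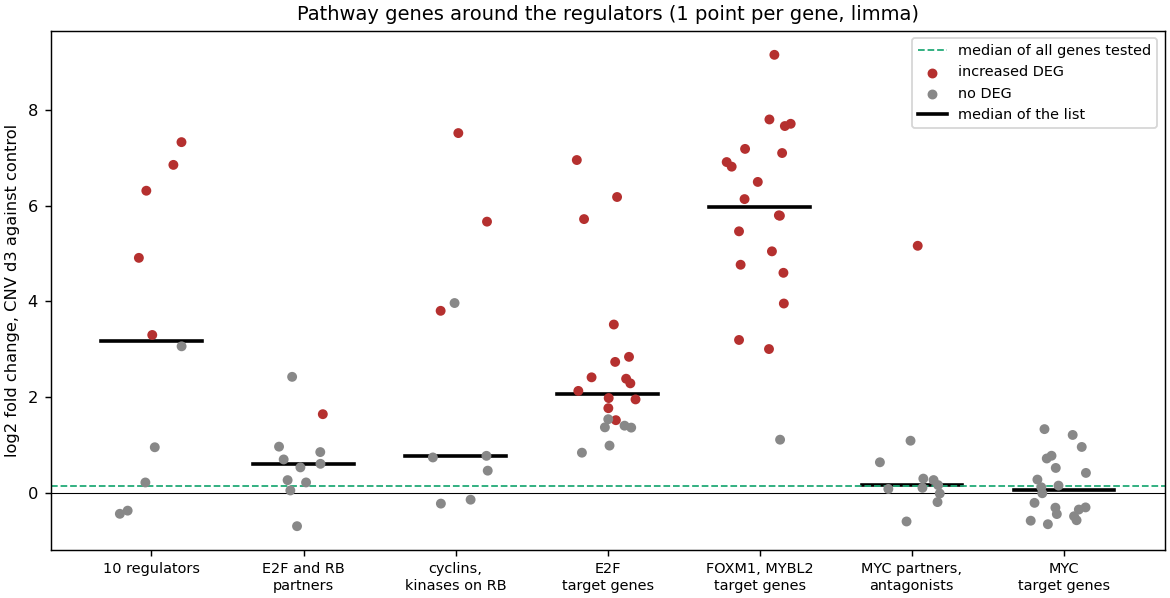
The log2 fold change of CNV d3 against control (limma) is shown for each gene of the 10 regulators and of the 6 pathway lists, with red points for increased DEG, black lines for list medians and a dashed line for the median of all genes (0.15). The medians are 5.97 for the FOXM1 and MYBL2 targets, 2.05 for the E2F targets and 0.05 for the MYC targets.

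Around *Myc*, 1 of 11 partners and antagonists was an increased DEG and none was decreased, with a median log2FC of 0.15. This was *Mxd3*, a MAX partner that opposes MYC and is known for its expression in S phase, at 16.5 ± 28.0 normalized counts in control and 139 ± 47.1 in CNV d3 (SD, n = 6; log2FC = 5.17, limma padj = 0.00641). Its groups overlapped, since 4 controls had 0 reads and the lowest CNV d3 sample was at 48.8, under the highest control of 67.6. edgeR did not call it a DEG, nor was it called with either subset of the CNV d3 samples. Of 20 known MYC targets, 0 were DEG in limma, edgeR or DESeq2. At an unadjusted limma p under 0.05, 7 were higher and 5 lower, and 6 were increased and 2 decreased at padj under 0.05 alone, with a median log2FC of 0.05. Increased at that looser rule were *Ldha*, a lactate dehydrogenase subunit (6367 ± 1141 to 14676 ± 2389, log2FC = 1.21, limma padj = 3.9e-05), and *Ncl*, the nucleolar protein nucleolin (log2FC = 0.71, limma padj = 0.000314). The MYC targets summed to 31647 to 36549 normalized counts in control and to 42327 to 53798 in CNV d3. The sums did not overlap, and abundant genes such as *Ldha* weigh most in them. The most abundant genes of the partner list, *Mxi1* and *Mlxip*, did not pass (log2FC = 0.29 and -0.20, limma padj = 0.153 and 0.293). Among genes with a window, the E-box was in 5 of 17 of the MYC targets (29.4%), in 4 of 8 of the E2F and RB partners (50%), in 2 of 5 of the cyclins and kinases (40%), in 4 of 11 of the MYC partners (36.4%) and, of the regulators, in a second window of *E2f3* alone.

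**Figure D4:**
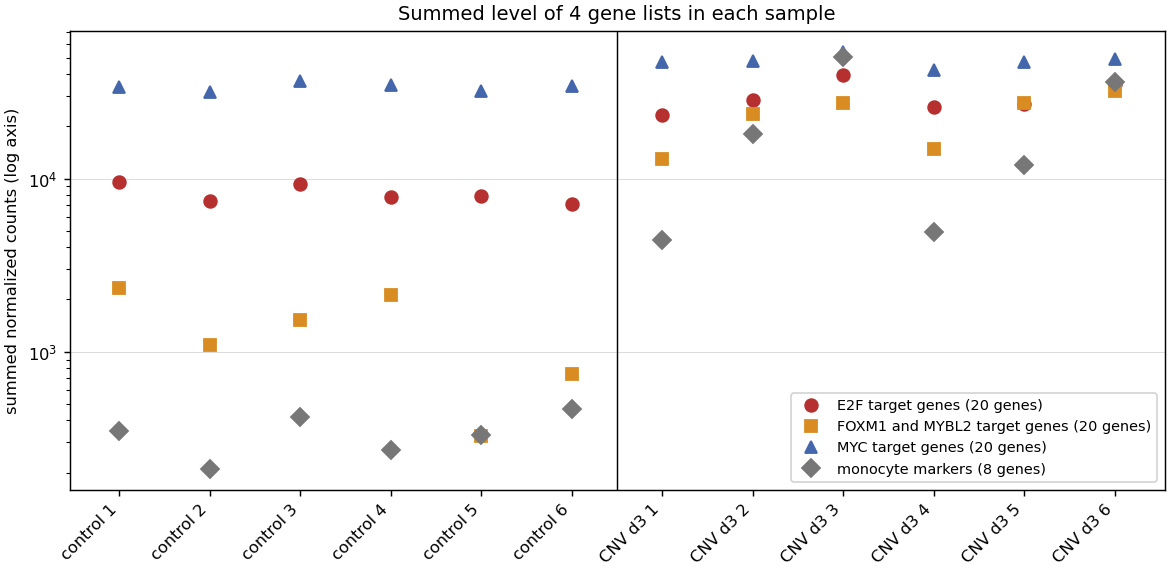
Summed normalized counts (log axis) of the E2F targets, the FOXM1 and MYBL2 targets, the MYC targets and the monocyte markers in each of the 12 samples. The sums of all 4 lists lie above all controls in each CNV d3 sample. They are 23214 to 39784 for the E2F targets, 13007 to 32095 for the FOXM1 and MYBL2 targets and 42327 to 53798 for the MYC targets. The monocyte marker sums vary most among the CNV d3 samples.

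As a description of which genes varied alongside a regulator within the groups, log2(normalized counts + 1) was correlated over the 12 samples after removal of each group mean, among 9705 genes with a mean of at least 100. The genes most like *Foxm1* were *Cdca5* (Pearson r = 0.97), *Sec22c* (0.94), *Sympk* (0.92), *Washc5* (0.91) and *Mrps26* (0.91). These values rest largely on the controls, 4 of which had 0 reads of *Foxm1*, and within the 6 CNV d3 samples r was 0.62 for *Cdca5*, 0.44 for *Sec22c*, 0.85 for *Sympk*, 0.67 for *Washc5* and -0.41 for *Mrps26*. Most like *Myc* were *Cc2d1a* (r = 0.91), *Pdcd1* (0.90), *Zgpat* (0.89), *Zcchc24* (0.88) and *Senp1* (0.87). The samples share their depth and cell composition in each of these values. For each regulator the named genes are the highest of 9705 over 12 samples, and how high chance alone would reach was not tested. *Cdca5*, which codes for sororin and holds sister chromatids together, was at 38.2 normalized counts in control and 440 in CNV d3 (log2FC = 6.49).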

How the data were processed

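RNA of sorted microglia, in picogram amounts, was converted to cDNA, amplified by PCR and sequenced as single reads. Per the labels and methods, the authors mapped the reads with STAR 2.7.2b, merged the parts of each sample (19 listed samples form 12), counted reads per gene with featureCounts 1.6.4 without strand, and divided the counts by the size factors of DESeq2 1.22.2. The deposited signal is this normalized count, without a threshold beyond the removal of genes with no read. The authors' group means, fold changes and adjusted p-values are also deposited and were not used here. Per the submitters' processing notes the genome build is GRCm38.p6.

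The values were not raw counts, so limma 3.58.1 (R 4.3.3) with a variance trend was fitted to log2(normalized counts + 1) over 27299 genes, where edgeR would have been used for raw counts. Fold changes of low genes on this scale depend on the pseudocount. Every value of all 12 samples was a whole multiple of 1 read (100% within a tolerance of 0.01), so the counts were recovered and tested with edgeR 4.0.16 and DESeq2 1.42.0 as alternatives. Single genes and 6 within-sample ratios were tested by exact two-sided permutation over 924 labellings of the samples, which give at least p = 0.00216. The scripts were tested on simulated data. The floor is 3 reads. Intervals and floors cover counting error only, as the reads carry no molecular identifiers. Coordinates come from a Gencode annotation of GRCm38, which matched 27238 of the genes. Default counting leaves out reads in exons of 2 genes.

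The regulators, lists and named genes were chosen with earlier results of these data known. Named were all 10 regulators, and in each pathway list the 2 increased DEG with the largest log2FC, the 2 with the highest mean in CNV d3, decreased DEG and the 2 uncalled genes with the highest mean, *Rbl2* and *E2f4*, the 5 genes most like *Foxm1* and *Myc*, and defining markers. *Ddx3y* and the overlapping genes were added after their values were seen. Alternatives were other pseudocounts, a filter, TMM scaling, thinning, a *Ddx3y* covariate, the replicate block, no variance trend and leaving out each sample. Added after seeing the data were 2 subsets of the CNV d3 samples.

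The other marker lists were summed as checks of the sort, in normalized counts, for control and then CNV d3. Photoreceptors had 668 to 6339 and 534 to 11854, endothelium 500.3 to 990 and 457 to 965, and retinal pigment epithelium 2.15 to 196 and 54.0 to 267.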

Additional observations from a re-analysis of the deposited data

Results flagged for a closer look

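In 2 of the 20 groups of 6 samples examined (10 regulators in control and in CNV d3), 1 sample lay farther from the others than Dixon's 95% critical ratio for 6 samples, where chance flags about 1 in 20 groups. That rate does not apply to these 2, in which the other 5 values are 0 and any read passes. Both were control replicate 1. It had 1.07 normalized counts of *E2f7*, which is 1 read, and 37.6 normalized counts of *Mybl2*, where the other 5 controls had 0 reads of each gene. *Mybl2* remained an increased DEG and *E2f7* too when this sample was left out (limma).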

How the results depend on the processing

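Of 330 values under other settings, 301 were rated as unchanged, as were 376 of 384 values that left out 1 sample. For fold changes and ratios, this means that the direction and the side of the threshold were kept. Counts of genes could shift and still be rated as unchanged, so the calls of single genes could differ. Examples are 4 regulators instead of 5 in edgeR and 734 increased genes instead of 1068 after the filter. With the CNV d3 samples free of *Ddx3y* reads, 2 regulators, 524 genes increased and 166 decreased, 8 E2F targets, 8 FOXM1 and MYBL2 targets and 0 MYC partners were DEG in limma, and the log2FC was 3.47 for *E2f1*, 4.78 for *E2f8*, 6.80 for *Foxm1* and -0.018 for *Rb1*. Without the 2 CNV d3 samples of highest monocyte marker sum, the counts were 2, 553, 176, 9, 11 and 0, and the log2FC was 3.13 for *E2f1*, 4.87 for *E2f8* and 6.62 for *Foxm1*, none of them called. Both subsets hold fewer samples. With the *Ddx3y* covariate 690 genes were increased and 191 decreased, *E2f8* was at 4.78 and *Rb1* at -0.019. DESeq2 called 3 regulators and 572 decreased genes, with 2.67 for *E2f8* and 3.59 for *Foxm1*, both uncalled, and edgeR gave 2.68 for *E2f8* and 0 MYC partners. Main counts were 1068 increased and 293 decreased. Leaving out 1 sample gave 4.23 to 5.72 for *E2f8*, 0.52 to 0.91 for the ratio of *Rbl1* to *Rb1* and -0.82 to 1.80 for that of *Foxm1* to *Mybl2* (-0.82 without control sample 1), which the pseudocount sets in control. The cause of these shifts was not tested. Same-numbered samples did not deviate together (correlations -0.05 to 0.07 over 6 pairs). The labels name no pairing, and so few pairs cannot exclude one of small effect. With the replicate block 5 regulators, 921 increased and 215 decreased genes were called. The median log2FC of all genes moved between -0.01 (DESeq2) and 0.23 (pseudocount 0.5). Depth limits the control values near 0, where 3 reads are 5.96 normalized counts in the shallowest sample.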
